A study of Mus musculus with 18 samples.

Results

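The aquaporins are membrane channels, and 6 genes of the family were followed here: Aqp1, Aqp3, Aqp4, Aqp5, Aqp8 and Aqp11. They were chosen by name among the 26114 gene names of the count table of dataset 1 and the 29195 of dataset 2, and all 6 were present in both tables. Their UMIs (unique molecular identifiers, each standing for 1 captured transcript) were read in all 4484 annotated cells, by cluster and by epithelial type, and in pit cells also by region and maturity.

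The cells came from the stomach of 10-week-old male C57BL/6J wild-type mice that had no treatment, so no sample carries an altered allele or an agent. Dataset 1 held 491 cells in 15 clusters, from corpus and antrum units together, in pools tube1 and tube2. Dataset 2 held 3993 cells in 20 clusters, from corpus units alone, in pools K and T. Each pool joined the cells of 3 mice, so 2 pools stand behind each type and a single mouse cannot be told apart. Cells were sorted as ToPro3(-) in dataset 1 and as Hoechst33342(+),ToPro3(-) in dataset 2, one to a well, and were measured with Quartz-Seq2, which primes at the poly(A) tail and marks each well with a barcode and each molecule with a UMI. In dataset 1 the region of a pit cell was known only from its cluster.

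Aquaporins are tetramers in which each subunit forms its own pore, and water crosses the membrane through them along an osmotic gradient. AQP1, AQP4 and AQP5 pass water. AQP3 also passes glycerol and hydrogen peroxide and is called an aquaglyceroporin, AQP8 passes water and ammonia, and AQP11 is a divergent member found on intracellular membranes. In the stomach, AQP4 is known from the basolateral membrane of the acid-secreting parietal cell, and AQP5 is known as an apical channel of secretory glands such as salivary and pyloric glands.

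In GRCm39, Aqp1 lies at chr6:55313068-55325540 on the plus strand and Aqp3 at chr4:41092722-41098183 on the minus strand. Aqp5 lies at chr15:99488532-99492710 on the plus strand and overlaps the lncRNA gene Gm34765 on the opposite strand. Whether the counting used strand is not given in the sources used here, so reads of Aqp5 and of this antisense partner cannot be told apart. Aqp8 and Aqp11 share a chromosome, at chr7:123061514-123067227 on the plus strand and chr7:97373213-97387524 on the minus strand.

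The promoters of Aqp3, Aqp11 and Aqp5 are shown because the levels in pit and neck cells turn on these genes. Each is the RefSeq stretch from 250 bases before to 50 bases after the RefSeq gene start, which lies at the start given above for Aqp3 and 70 and 377 bases downstream of it for Aqp11 and Aqp5, 5′ to 3′ on the gene's strand, found at 1 place on its chromosome of GRCm39. The positions are chr4:41098134-41098433 on the minus strand for Aqp3, chr7:97387405-97387704 on the minus strand for Aqp11 and chr15:99488659-99488958 on the plus strand for Aqp5. Capitals mark TATAAA, which was searched on both strands.
Aqp3: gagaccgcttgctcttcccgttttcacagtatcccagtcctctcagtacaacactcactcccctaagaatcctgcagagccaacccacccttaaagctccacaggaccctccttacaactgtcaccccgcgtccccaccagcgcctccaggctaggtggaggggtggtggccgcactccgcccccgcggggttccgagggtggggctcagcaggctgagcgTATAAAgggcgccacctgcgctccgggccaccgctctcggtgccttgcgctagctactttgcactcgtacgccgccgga
Aqp11: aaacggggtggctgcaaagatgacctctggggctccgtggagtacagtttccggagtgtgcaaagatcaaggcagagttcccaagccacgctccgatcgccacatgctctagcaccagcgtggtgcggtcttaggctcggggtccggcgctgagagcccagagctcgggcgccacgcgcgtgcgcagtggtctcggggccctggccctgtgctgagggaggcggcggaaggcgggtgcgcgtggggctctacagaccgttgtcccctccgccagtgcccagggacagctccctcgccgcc
Aqp5: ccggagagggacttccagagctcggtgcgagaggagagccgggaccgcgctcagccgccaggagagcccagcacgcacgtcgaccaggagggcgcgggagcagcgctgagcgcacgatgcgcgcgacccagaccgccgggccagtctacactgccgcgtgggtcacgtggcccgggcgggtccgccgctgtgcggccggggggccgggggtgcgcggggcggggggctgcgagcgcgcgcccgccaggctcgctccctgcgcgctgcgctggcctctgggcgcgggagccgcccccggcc
Aqp3 held 1 TATAAA on its own strand, 29 bases before the start, and the promoters of Aqp11, Aqp5, Aqp1 and Aqp8 held none on either strand. Of 32851 RefSeq promoters of the same length, 13.6% held TATAAA on either strand and 2.63% held it on the gene's strand within 50 bases before the start. Aqp5 had 46 CG dinucleotides, more than 98.4% of these promoters, against a median of 7. Aqp11 had 27, Aqp3 had 21, Aqp1 had 8 and Aqp8 had 6. These are descriptions of letters and not of factor binding.

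The median was 38757 UMIs per cell in dataset 1 and 31020 in dataset 2. By marker genes the type names fitted the cells of dataset 2: Muc5ac, the pit mucin, was at 4450 and 3993 unscaled CPM (UMIs per 1000000 UMIs) in the mature pit and pre-pit clusters and at most 142 in neck, chief and parietal clusters, Muc6, the neck mucin, was at 935 to 3456 in the 4 neck clusters, Cblif, the chief cell intrinsic factor, at 14980 in the chief cluster, and Atp4b, the proton pump beta subunit, at 15242 and 19111 in the 2 parietal clusters. Cblif also reached 9122 in neck cluster 12. Atp4b was found in every other cluster too, at 59.9 to 218 unscaled CPM.

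Aqp4 and Aqp5 were the most abundant members in dataset 2, with 4220 and 4460 UMIs, ahead of Aqp11 with 2312, Aqp3 with 337, Aqp8 with 124 and Aqp1 with 72. Dataset 1, with fewer cells, held 1593 UMIs of Aqp3, 684 of Aqp11, 571 of Aqp5, 482 of Aqp4, 52 of Aqp8 and 39 of Aqp1. These totals follow the number of cells of each type and do not compare levels between genes. In dataset 2, 242 of the 337 Aqp3 UMIs lay in mature pit cells, 3555 of the 4220 Aqp4 UMIs in parietal cells, 2551 of the 4460 Aqp5 UMIs in neck cells and 123 of the 124 Aqp8 UMIs in cluster 14, an enterochromaffin-like (ECL-like) cluster.

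**Figure D1:**
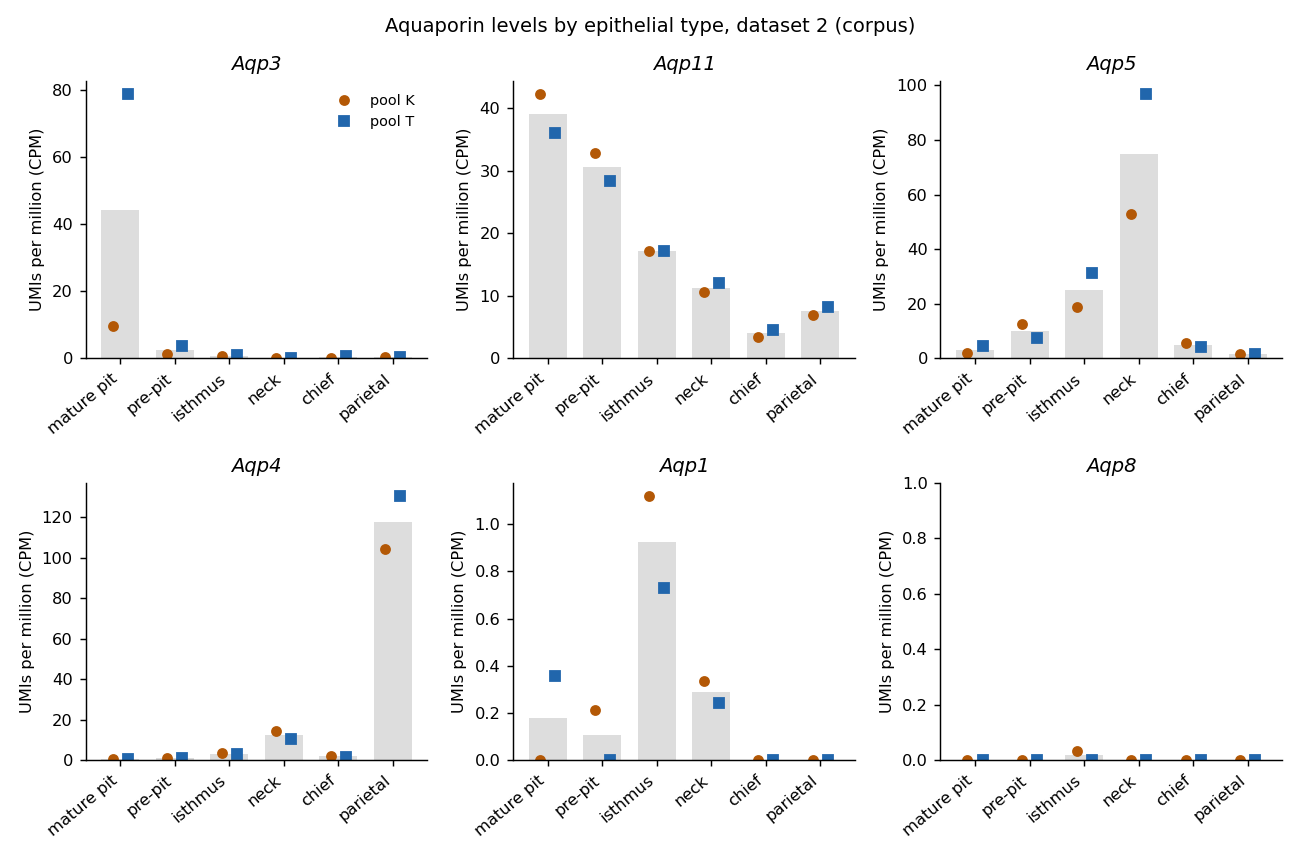
CPM (scaled UMIs per 1000000) of each member in 6 epithelial types of dataset 2, with 1 point per pool and grey bars for the mean of the pools, on a linear axis of its own in each panel. Aqp3 stands highest in mature pit cells with the pools far apart (9.54 and 78.8), Aqp11 in mature pit and pre-pit cells, Aqp5 in neck cells and Aqp4 in parietal cells, and the Aqp8 panel holds 1 UMI in all.

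Levels by type are given as CPM, that is UMIs per 1000000 UMIs after TMM scaling of the sums of all cells of a type in a pool, and each difference was tested with edgeR across all genes. Since the clusters behind the types were drawn by the authors on these very counts, a p-value between types carries that choice too, and with 2 pools it measures the spread between pools. Aqp1 and Aqp8 did not pass the filter on low sums in the fits by type, which left 4 members. Against the mean of the other types of dataset 2, 15 of 24 tests of these 4 members passed (8 higher, 7 lower), while 48.8% of all gene tests passed. By type, 1 of 4 members passed in chief cells (50.0% of all genes), 2 in isthmus cells (51.3%), 3 in mature pit cells (39.1%), 4 in neck cells (49.0%), 3 in parietal cells (67.8%) and 2 in pre-pit cells (35.6%). Between pairs of types, 41 of 60 tests of the 4 members passed in dataset 2, where 48.1% of all gene tests did, and 54 of 84 in dataset 1, where 33.8% did. The share called among the members thus lay near that of all genes in several types, and the members are described here by the size and order of their levels.

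Aqp3 was concentrated in mature pit cells, the cells at the luminal end of the gastric unit. In dataset 2 its level there was 9.54 CPM in pool K and 78.8 CPM in pool T (44.2 ± 49.0, SD, n = 2), from 21 and 221 UMIs. In pre-pit cells it was 1.27 and 3.57 CPM, in isthmus cells 0.577 and 0.972, in parietal cells 0.415 and 0.291, in chief cells 0 and 0.770 and in neck cells 0.112 and 0.0602. Both mature pit values were above all 10 values of the other types. The study used Aqp3 to name the mature pit cells, so the step from pre-pit to mature pit is a description and no independent evidence: it was 4.18 ± 0.74 (SE) on the log2 scale. Among the neighbours below, pre-pit, isthmus, chief, parietal and neck cells, none differed from the next by test in the main fit (adjusted p from 0.220 to 0.925). Without the filter on low sums, isthmus against pre-pit cells (-1.58, adjusted p = 6.84e-04) and neck against parietal cells (-1.93, adjusted p = 0.0452) were called. Isthmus against neck cells (3.04, adjusted p = 0.0919) was called without the filter, with the pool as a block and with DESeq2 (adjusted p = 2.17e-06, 0.0140 and 0.0424). Measured against a floor of 3 UMIs in each pool, mature pit cells were at least 253-fold higher than neck cells and at least 31.2-fold higher than chief cells. Neck and chief cells had 3 and 2 UMIs in all. With the level of pool K alone, these bounds were 54.6-fold and 6.74-fold.

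The pools of dataset 2 disagreed on how much Aqp3 mature pit cells held. The 6 plates of pool K lay at 0, 0, 3.09, 3.71, 13.7 and 29.2 unscaled CPM, and the 6 plates of pool T at 32.9, 41.8, 47.1, 82.9, 94.4 and 143. All T plates were above all K plates. The plates of a pool share the same 3 mice, so this compares these pools and carries no test. Aqp11 in the same cells did not follow: it was 42.2 CPM in K and 36.0 in T, and its plates overlapped (30.9 to 60.3 and 19.2 to 46.9 unscaled CPM). The study states that different operators prepared the pools. Among genes of the lists below, Mgll was 18.6 and 67.7 CPM in K and T mature pit cells, Duox2 32.7 and 59.5, Gk 166 and 165 and Sgk1 918 and 856. The median depth was 43361 UMIs per mature pit cell in K and 44629 in T. The part of operator, mice or cell maturity in this gap was not tested. Without pool T the step from pre-pit to mature pit was 2.90 on the log2 scale.

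**Figure D2:**
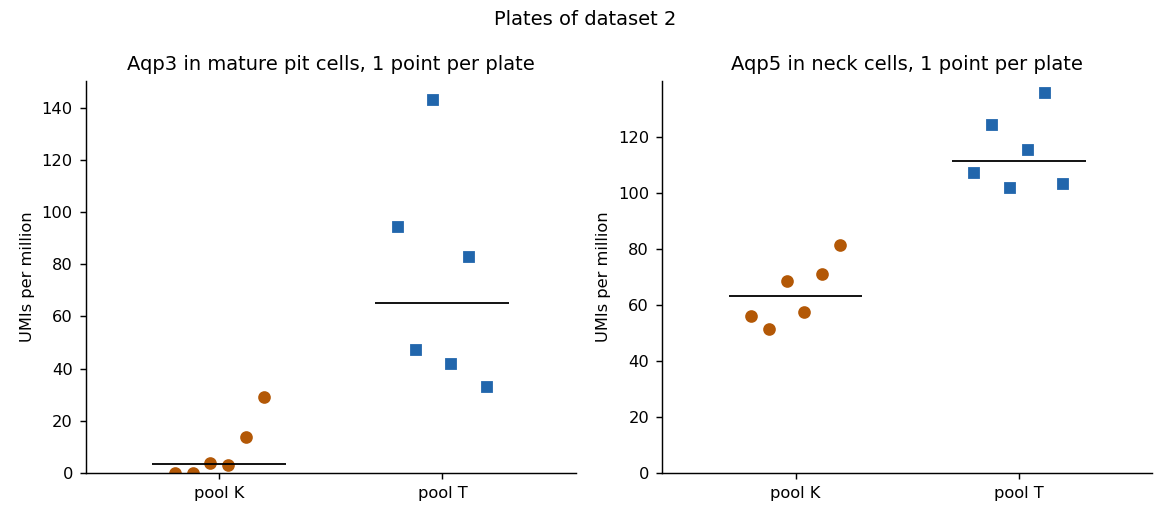
Unscaled CPM on each plate of dataset 2 for Aqp3 in mature pit cells and Aqp5 in neck cells, by pool, with 1 point per plate and a line at the median of 6 plates. In both panels the plates of pool T (32.9 to 143 for Aqp3, 102 to 136 for Aqp5) lie above those of pool K (0 to 29.2 and 51.5 to 81.1).

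Dataset 1 asked how Aqp3 differs between regions. In antrum mature pit cells it was 437 and 425 CPM (431 ± 8.69, SD, n = 2) and in corpus mature pit cells 243 and 197 CPM (220 ± 32.8). The groups did not overlap. The antrum level was 1.96-fold higher, with a corpus minus antrum difference of -0.97 ± 0.17 on the log2 scale (adjusted p = 0.00179). Aqp3 was the 1 member of 4 that passed in this comparison, in which 4.29% of all genes did. With only 1 pool left in these types the difference kept its sign and lost the call (-1.09 with adjusted p = 0.0504 without tube1, -0.83 with adjusted p = 0.123 without tube2).

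Pre-pit cells held less Aqp3 in both regions, at 25.3 and 28.5 CPM in the antrum and 12.7 and 16.3 CPM in the corpus. Their corpus minus antrum difference was -0.90 ± 0.40 on the log2 scale and missed the threshold (adjusted p = 0.256, unadjusted p = 0.0359). None of the 4 members passed there with edgeR or with DESeq2, 1 had an unadjusted p under 0.05, and 5.07% of all genes passed. The step from pre-pit to mature pit was 3.95 ± 0.26 on the log2 scale in the corpus and 4.01 ± 0.24 in the antrum, again as a description, since the study picked Aqp3 as the marker of these cells in these data. Aqp3 was the 1 of 4 members called in each, where 12.9% and 14.0% of all genes were called. The difference between the regions in this step, tested as an interaction, was -0.06 ± 0.47 (adjusted p = 1.0). No member passed the interaction with edgeR or DESeq2 and none had an unadjusted p under 0.05, in a test that called 3 genes (0.0293%). Isthmus-like cells had 8.28 and 2.0 CPM of Aqp3, with 10 of the 13 UMIs of tube1 in 1 cell, neck cells 1 UMI and parietal cells 0 in 57 cells, so antrum and corpus mature pit cells were at least 198-fold and 101-fold above parietal cells.

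**Figure D3:**
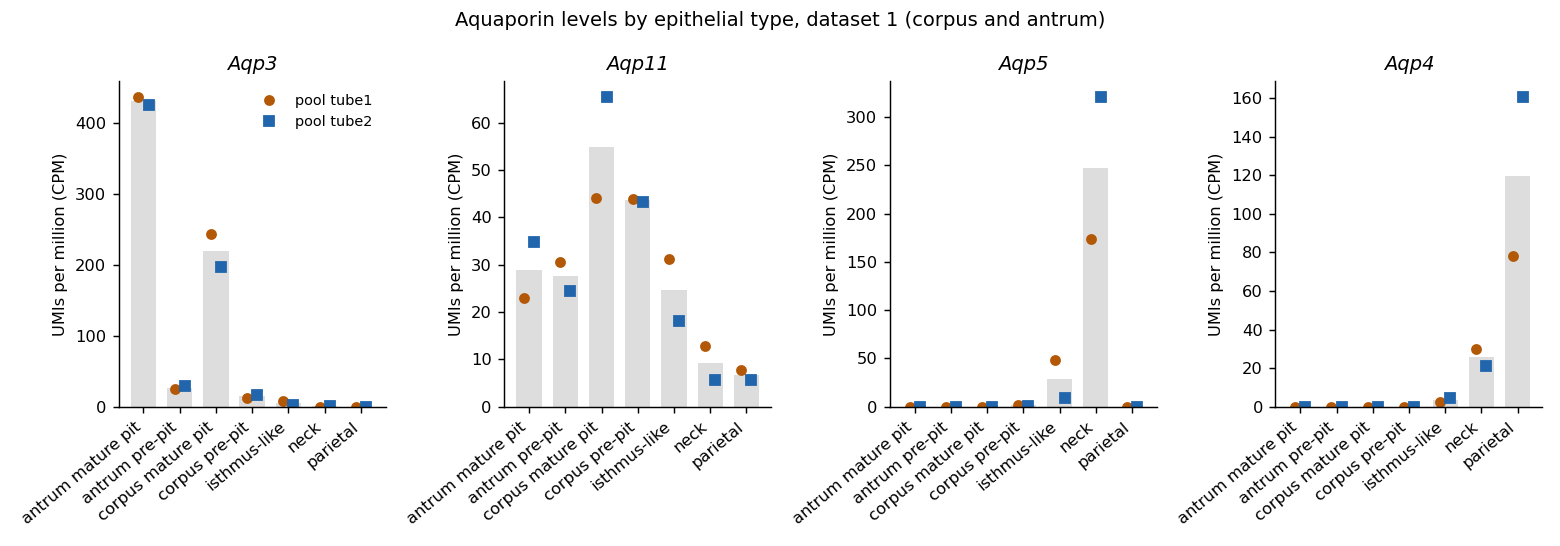
CPM (scaled UMIs per 1000000) of 4 members in 7 epithelial types of dataset 1, with 1 point per pool and grey bars for the mean of the pools. Aqp3 is near 431 CPM in antrum and 220 in corpus mature pit cells, Aqp11 is spread over the pit types, and Aqp5 and Aqp4 are at or near 0 in pit cells and lead in neck and parietal cells.

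The 2 datasets gave different absolute levels of Aqp3 in corpus mature pit cells, 220 CPM in dataset 1 and 44.2 in dataset 2. They were scaled separately and made with different primers, so no test was run between them. Per the paper's methods, dissociation also differed, with collagenase before pronase in the first step of dataset 2, and debris was sorted out there by Hoechst staining. The part of these differences in the gap was not tested. Per cell, after thinning each cell to 10000 UMIs, 84.6% of corpus mature pit cells of dataset 1 had an Aqp3 UMI (95% exact binomial interval 65.1 to 95.6%), and 85.7% of antrum mature pit cells (72.8 to 94.1%). In dataset 2 the share was 17.9% (11.5 to 26.1%), made of 6.00% in K and 26.9% in T. The background was taken as the share in neck cells of dataset 2, 0.242%, and in parietal cells of dataset 1, where 0 of 57 cells allow up to 6.27% (exact binomial). Unthinned the shares were 96.2%, 98.0% and 33.9%. These intervals cover counting error only.

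Aqp11 was also highest in pit cells but was present at graded levels in the other types, which are listed here in order of their mean. In dataset 2 it was 42.2 and 36.0 CPM in mature pit cells, 32.9 and 28.4 in pre-pit cells, 17.2 and 17.1 in isthmus cells, 10.6 and 12 in neck cells, 6.94 and 8.29 in parietal cells and 3.35 and 4.62 in chief cells. The ranges of neighbouring types did not overlap anywhere in this order, which is one of levels and not of position in the unit. Single clusters crossed it. Neck cluster 2 had 16.5 and 18.5 CPM beside 15.3 and 16.9 in isthmus cluster 6. Parietal cluster 8 had 9.86 and 12.2 CPM, above 6.33 and 8.91 in neck cluster 12. Mature pit and pre-pit cells did not differ by test (0.35 ± 0.15 on the log2 scale, adjusted p = 0.168), and each further step passed: pre-pit over isthmus by 0.83 ± 0.13, isthmus over neck by 0.61 ± 0.12, neck over parietal by 0.57 ± 0.14 and parietal over chief by 0.89 ± 0.28 (adjusted p = 0.0176 for the last). Against the mean of the other types, mature pit cells were 3.44-fold higher (1.78 ± 0.13, adjusted p = 1.21e-07) and chief cells 4.32-fold lower (-2.11 ± 0.24, adjusted p = 4.96e-06). Mature pit against pre-pit, the comparison in which 10.4% of all genes passed, called Aqp3 alone of the 4 members.

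In dataset 1, Aqp11 was 44.2 and 65.5 CPM in corpus mature pit, 43.9 and 43.2 in corpus pre-pit, 23.0 and 34.8 in antrum mature pit and 30.6 and 24.5 in antrum pre-pit cells. The corpus values were thus above the antrum values at either stage. The difference between corpus and antrum was 0.96 ± 0.30 on the log2 scale in mature pit cells (adjusted p = 0.0934) and 0.63 ± 0.34 in pre-pit cells (adjusted p = 0.390). Neither passed, though the difference in mature pit cells did so without the filter on low sums (adjusted p = 0.0230), and the direction was opposite to that of Aqp3. Maturity made no step that passed in either region (0.32 ± 0.29 in the corpus, -0.01 ± 0.36 in the antrum). Isthmus-like cells (31.2 and 18.0 CPM) were above neck cells (12.7 and 5.56) by 1.5 ± 0.43 (adjusted p = 0.0125), and parietal cells were at 7.79 and 5.69 CPM.

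The highest Aqp11 level of dataset 1 was outside these types. Cluster 5-7 expressed the enterocyte genes Alpi, Apoa4 and Fabp2 at 7630, 11555 and 7729 unscaled CPM and is called enterocyte-like here. In a fit over all clusters it had 151 and 276 CPM of Aqp11, and it was called above the mean of the other clusters (adjusted p = 2.76e-15). No fold is given, since 3 of the other clusters had 0 Aqp11 UMIs and 3 had 1 or 2. The next highest cluster was corpus mature pit cluster 8, at 50.4 and 74.1 CPM. Cluster 5-7 held 70.7 and 40.5 CPM of Aqp3 and 32.1 and 15.2 CPM of Aqp8, which were called as well. The Aqp8 call was lost with DESeq2 (adjusted p = 0.533). All Aqp8 UMIs of dataset 1 lay in clusters 5-7 and 9, through which Aqp8 passed the filter on low sums, so its call is a description. No cluster of dataset 2 had these 3 genes at such levels (at most 365 unscaled CPM, for Apoa4 in parietal cluster 1), so these values stand in 1 dataset.

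Aqp5 led in neck cells, the mucous cells below the isthmus. In dataset 2 it was 53.0 and 96.8 CPM in neck cells (74.9 ± 30.9, SD, n = 2), 18.9 and 31.2 in isthmus cells, 12.4 and 7.31 in pre-pit cells, 5.59 and 4.24 in chief cells, 1.82 and 4.63 in mature pit cells and 1.66 and 1.75 in parietal cells. Neck cells were above all other values, and isthmus cells above the rest. Neck exceeded isthmus by 1.57 ± 0.25 on the log2 scale (adjusted p = 0.000176) and isthmus exceeded pre-pit cells by 1.38 ± 0.37 (adjusted p = 0.0133). From pre-pit cells down no neighbours differed by test. Against the mean of the other types neck cells were 12.8-fold higher (3.68 ± 0.23, adjusted p = 4.40e-08), isthmus cells 3.47-fold higher (1.79 ± 0.26) and parietal cells 7.28-fold lower (-2.86 ± 0.47). Between mature pit and pre-pit cells the difference was -1.52 ± 0.75 (adjusted p = 0.243), and it was called without the filter on low sums and with DESeq2 (adjusted p = 2.36e-04 and 0.0370).

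Within neck cells all 4 clusters of dataset 2 were called above the mean of the other clusters. Clusters 15 to 19 had 0 Aqp5 UMIs and enter this mean with fitted values. Cluster 12 had 122 and 227 CPM, cluster 0 had 74.9 and 123, cluster 7 had 69.1 and 112 and cluster 2 had 37.6 and 44.5. Pool T was above pool K in each of them, and by plate neck cells lay at 51.5 to 81.1 unscaled CPM in K and 102 to 136 in T. Cluster 12 is the neck cluster in which Cblif was also high. Isthmus cells were uneven: clusters 3, 11 and 6 had 44.8 and 72.2, 26.9 and 67.5, and 23.1 and 41.7 CPM and were called, while clusters 5 and 9 had 7.26 and 14.4, and 10.6 and 7.88 CPM and were not. Mki67, a gene of dividing cells, was at 44.2 and 26.3 unscaled CPM in clusters 3 and 11 and at 436, 510 and 208 in clusters 6, 5 and 9. Differences between single clusters were not tested.

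In dataset 1, Aqp5 was 174 and 321 CPM in neck cells and 48.4 and 9.0 in isthmus-like cells, a step of 3.22 ± 0.42 on the log2 scale (adjusted p = 5.27e-05). The isthmus-like pools lay far apart, with 76 and 18 UMIs, of which 1 cell in each held 62 and 15. Without that cell, a choice made after the data were seen, the unscaled CPM of isthmus-like cells fell from 56.8 to 11.3 in tube1 and from 10.6 to 1.85 in tube2. Corpus pre-pit cells had 3 UMIs in tube1 and 1 in tube2, and the other pit types and parietal cells had 0. Against 3 UMIs in each pool, neck cells were at least 102-fold above antrum mature pit cells and 60.6-fold above corpus mature pit cells. The bounds were 49.0-fold over antrum pre-pit cells and 114-fold over parietal cells. With the lower neck pool alone, these bounds were, in the same order, 71.8-fold, 42.6-fold, 34.5-fold and 80.1-fold. In tube2, 1 neck cell held 109 of the 347 Aqp5 UMIs, and without it the unscaled CPM of neck cells fell from 385 to 274.

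Aqp4 was highest in parietal cells, with a second, lower level in neck cells. It lies at chr18:15522451-15544039 of GRCm39 on the minus strand and overlaps the lncRNA gene Gm50048 on the opposite strand, whose reads cannot be told apart from its own. In dataset 2 it was 104 and 131 CPM in parietal cells (117 ± 18.5, SD, n = 2), 14.4 and 10.6 in neck cells, 3.60 and 2.81 in isthmus cells, 2.24 and 1.54 in chief cells, 0.843 and 0.892 in pre-pit cells and 0.454 and 0.356 in mature pit cells. The first 3 types did not overlap. Parietal cells exceeded neck cells by 3.22 ± 0.14 on the log2 scale (adjusted p = 1.83e-10) and neck cells exceeded isthmus cells by 1.98 ± 0.18 (adjusted p = 7.59e-07), while isthmus, chief, pre-pit and mature pit cells did not differ from their neighbours by test. Against the mean of the other types, parietal cells were 61.0-fold higher (5.93 ± 0.14, adjusted p = 1.25e-13) and neck cells 4.17-fold higher (2.06 ± 0.22, adjusted p = 5.13e-06). Mature pit cells enter these means with a fitted value, since they held 2 UMIs in all, so parietal cells were at least 96.6-fold and neck cells at least 10.3-fold above them. Parietal clusters 1 and 8 were alike in mean, with 143 and 140 CPM and 98.0 and 176 CPM.

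Dataset 1 gave the same order, with 77.9 and 161 CPM in parietal cells, 29.7 and 21.3 in neck cells and 2.55 and 4.50 in isthmus-like cells. Parietal exceeded neck by 2.32 ± 0.34 and neck exceeded isthmus-like cells by 2.74 ± 0.58 on the log2 scale (adjusted p = 4.80e-05 and 0.00233). The 4 pit types had 0 Aqp4 UMIs, which placed parietal cells at least 23.6-fold to 49.3-fold above them, or at least 15.4-fold to 32.2-fold with the lower parietal pool alone.

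Aqp4 was set beside Atp4b, the parietal gene of the proton pump. In dataset 2 the Atp4b level of neck cells was 0.748% of the parietal level in K and 0.665% in T, but their Aqp4 level was 19.1% and 10.8% of it. For each 1000 Atp4b UMIs there were 130 and 111 Aqp4 UMIs in neck cells and 5.08 and 6.84 in parietal cells. The ratio was 6.10 and 7.14 in mature pit, 11 and 9.77 in pre-pit, 11.8 and 9.22 in chief and 31.2 and 37.1 in isthmus cells. The mature pit ratio rests on 1 Aqp4 UMI in each pool. Isthmus cells were not alike, with 6.90 and 7.03 in cluster 11. What these ratios come from was not tested. In dataset 1 the ratio was 875 and 1438 in neck cells and 4.30 and 8.78 in parietal cells, from 24 and 16 Atp4b UMIs in neck cells.

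**Figure D4:**
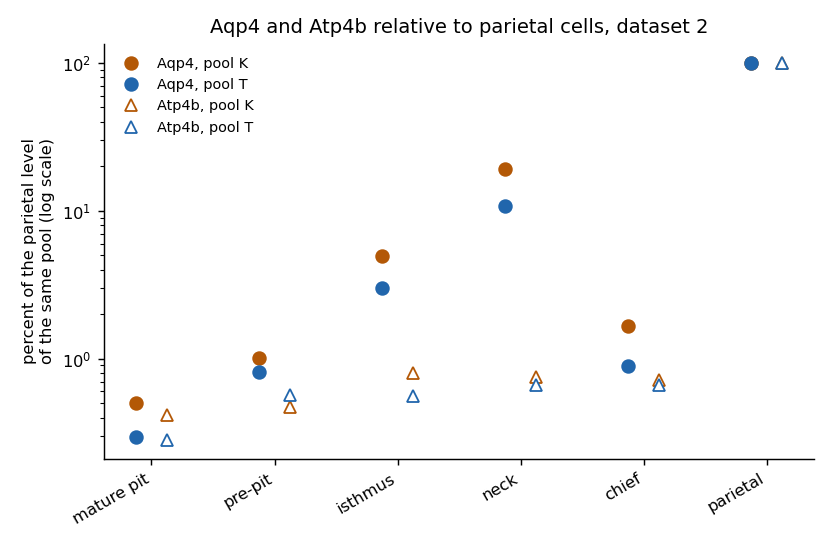
Level of Aqp4 (filled circles) and Atp4b (open triangles) in each type of dataset 2 as percent of the parietal level of the same pool, on a log axis, by pool. In neck cells Aqp4 stands at 19.1% and 10.8% while Atp4b stands at 0.748% and 0.665%, and the mature pit points of Aqp4 rest on 1 UMI in each pool.

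Aqp1 and Aqp8 were rare. Aqp1, best known from red cells and capillary endothelium, had 60 of its 72 UMIs of dataset 2 in isthmus cells (1.12 and 0.729 CPM) and 10 in neck cells (0.337 and 0.241 CPM), and 0 in parietal and chief cells. Isthmus clusters 9, 5 and 6 held 2.81 and 1.39, 2.37 and 1.22, and 1.51 and 1.05 CPM, and clusters 3 and 11 held 4 and 0 UMIs. Per cell, 1.09% of isthmus cells had an Aqp1 UMI at 10000 UMIs (0.60 to 1.83%). In dataset 1 it was 7.08 and 13 CPM in neck cells and 3.18 and 4.00 in isthmus-like cells, with 0 UMIs in the 4 pit types and in parietal cells. The order of neck and isthmus cells was thus opposite in the datasets, and neither was tested. The endothelial-like clusters, marked by Pecam1 and Cdh5, had 0 Aqp1 UMIs in 15 and 9 cells. At a median of 8472 and 7819 UMIs per cell this allows a share of cells with a UMI of up to 21.8% and 33.6% (exact binomial).

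Aqp8 was found in endocrine clusters and, in dataset 1, in the enterocyte-like cluster as well. In dataset 2 cluster 14, with 53 cells and Hdc, the histamine-forming enzyme of ECL cells, at 5599 unscaled CPM beside Ghrl, ghrelin, at 22040, it was 68.5 and 121 CPM, against 1 UMI in all other clusters together. In the fit over all clusters of dataset 2, Aqp8 was called there (adjusted p = 1.80e-13). It passed the filter on low sums only through this cluster, so the call is a description and no independent evidence. Cluster 14 had an Aqp8 UMI in 10 of 22 cells of K and 13 of 31 cells of T, up to 28 UMIs in a cell. All 23 of these cells had at least 7 Hdc UMIs. At least 5 Hdc UMIs were found in 52 of the 53 cells of the cluster, so Hdc does not set the Aqp8 cells apart within it. Of these 52 cells, 44.2% had an Aqp8 UMI. The D-like cluster 16 (31 cells, Sst) and the X/A-like cluster 17 (29 cells, Ghrl at 199005) had 0 Aqp8 UMIs. In dataset 1, cluster 9 mixed Gast, Ghrl, Sst and Hdc, and 10 of its 24 cells had at least 5 Hdc UMIs, a minimum chosen after the values were seen. The 5 cells with Aqp8 were among these 10, all in tube2 with 30 UMIs, of which 1 cell held 21, and the 7 cells of tube1 had 0 Aqp8 UMIs and no such Hdc level. The enterocyte-like cluster 5-7 held the other 22 Aqp8 UMIs of dataset 1, in 10 of 70 cells without such Hdc levels.

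Over all clusters, 24 of 100 member tests passed in dataset 2 (29.7% of all gene tests) and 18 of 75 in dataset 1 (24.7%), each of them higher than the mean of the other clusters. All gene tests leaned the same way. In dataset 2, 22.3% passed as higher and 7.36% as lower, and in dataset 1, 19.6% and 5.17%. Of the 6 other aquaporin genes looked for, Aqp7, an aquaglyceroporin of fat and endothelium, had 64 UMIs in dataset 1, 47 in the enterocyte-like cluster 5-7 and 16 in the endothelial-like cluster 13, and 7 of its 9 UMIs of dataset 2 in the endothelial-like cluster 19. Aqp2, Aqp6, Aqp9 and Aqp12 had 5, 2, 2 and 1 UMIs in dataset 2, Aqp9 had 1 in dataset 1, and Mip was in neither table.

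**Figure D5:**
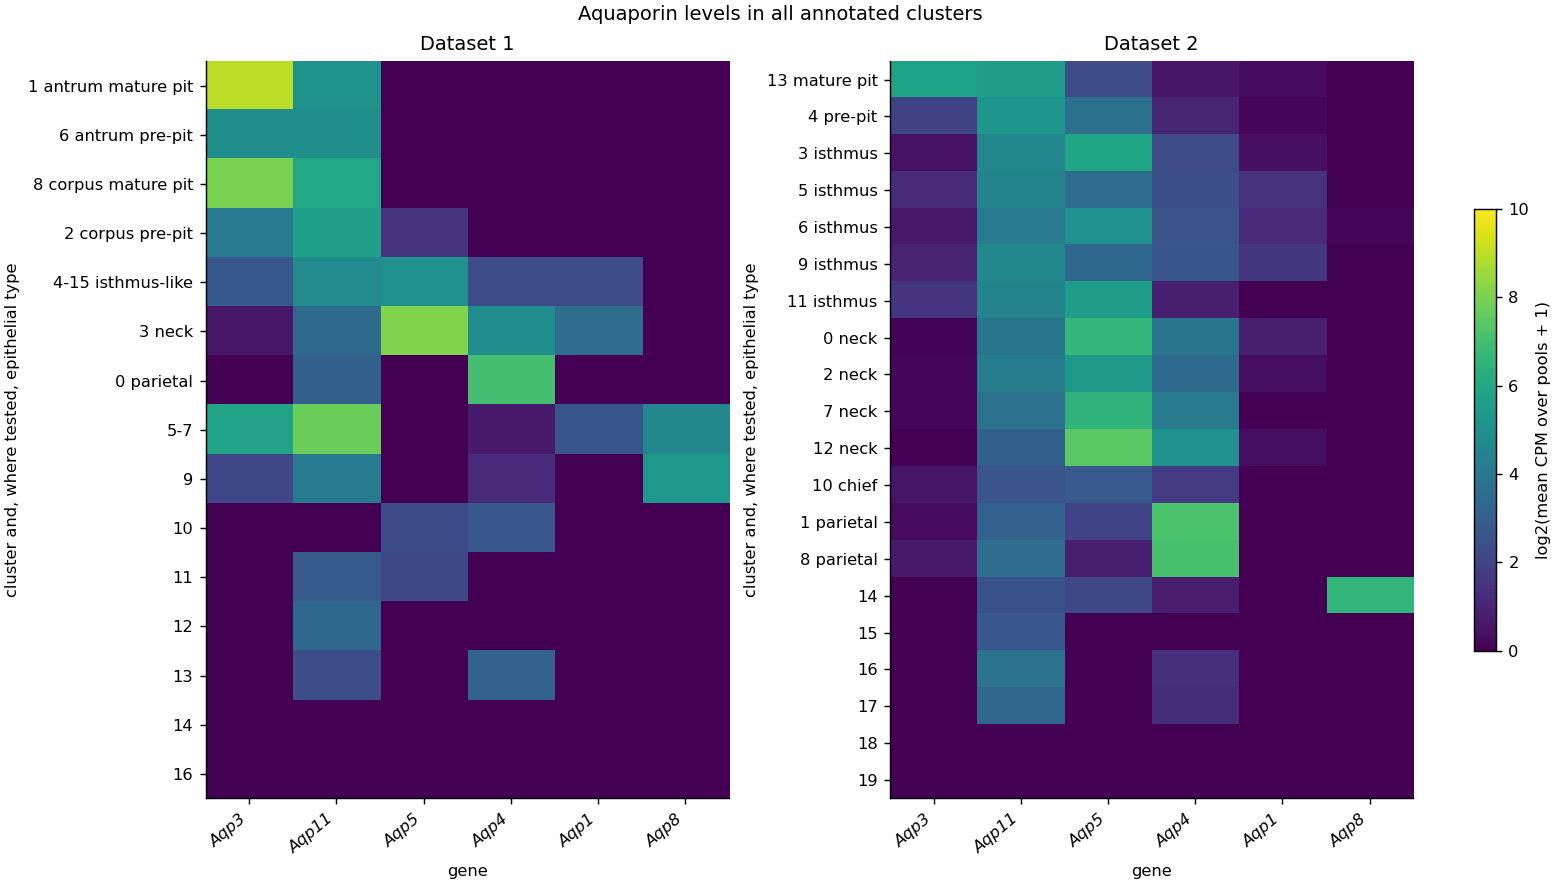
log2(mean CPM of the pools + 1) of the 6 members in all 15 clusters of dataset 1 and 20 clusters of dataset 2, with the epithelial type where one was tested. The brightest rows are those of Aqp3 in mature pit clusters, Aqp5 in neck clusters, Aqp4 in parietal clusters, Aqp8 in cluster 14 of dataset 2 and clusters 9 and 5-7 of dataset 1, and Aqp11 over pit and isthmus clusters and above all in cluster 5-7.

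The members differed in how evenly their UMIs lay over the cells of their leading type. In dataset 2, at 10000 UMIs per cell, Aqp11 had a mean of 0.444 UMIs in mature pit cells and 30.8% of the cells had one, against 35.9% if the same mean were spread by counting chance alone. In pre-pit and isthmus cells these shares were 27.5% against 26.9% and 17.8% against 18.2%. Aqp4 in parietal cells had a mean of 0.987 UMIs, but 27% of the cells (23.7 to 30.4%) had one, against 62.7%, and the 71 of 701 cells with the most UMIs held 70.5% of the UMIs. Aqp5 in neck cells (mean 0.862) was found in 33.8% of the cells (31.1 to 36.5%) against 57.8%, with 60.4% of the UMIs in 124 of 1238 cells. Aqp3 in mature pit cells of dataset 2 was found in 17.9% against 42.6%, and Aqp8 in cluster 14 in 39.2% against 79.6%. Aqp11 was therefore spread nearly as counting gives, and Aqp4, Aqp5, Aqp3 and Aqp8 were held by a part of the cells. In dataset 1 the same held for Aqp5 in neck cells (43.2% against 94.9%) and Aqp4 in parietal cells (40.4% against 75.0%), whereas Aqp3 was at 84.6% against 78.5% in corpus and at 85.7% against 97.2% in antrum mature pit cells. The pools of dataset 2 differed in Aqp3 and Aqp5, and the part of this in the uneven spread was not tested. The lowest shares, taken as background, were 0.713% for Aqp5 in parietal cells, 1.67% for Aqp11 in chief cells and 0 of 117 mature pit cells for Aqp4, which allows up to 3.10% (exact binomial). Median depths were 22530 UMIs per cell in neck, 47647 in parietal and 43578 in mature pit cells.

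Cells with UMIs of 2 members were counted without thinning. Of 1247 neck cells of dataset 2, 131 had Aqp4 and Aqp5, 121 Aqp4 alone, 449 Aqp5 alone and 546 neither. Of 121 mature pit cells, 28 had Aqp3 and Aqp11, 13 Aqp3 alone and 53 Aqp11 alone. Of 49 antrum mature pit cells of dataset 1, 31 had both and 17 Aqp3 alone. These counts share the depth of each cell and were not tested.

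Over the 40 cluster by pool sums of dataset 2, the genes whose log2(CPM + 1) was most like that of a member were listed as a description, since the sums share cell types and depth. For Aqp3 they were Ces2b, Ankdd1b and Tcf23 (Pearson r = 0.931, 0.907 and 0.905), and over the 30 sums of dataset 1 the r values were 0.929, 0.859 and 0.809. For Aqp4 they included Kcne2, a potassium channel subunit of the parietal cell, and Plekhd1 (0.874 and 0.861), with 0.759 in dataset 1 for Kcne2. For Aqp5 they were F5, Tns4 and Chrm1 (0.917, 0.911 and 0.905; dataset 1 0.686, 0.578 and 0.720). For Aqp11 they were Gstp2, Tfcp2l1 and Gm8730 (0.927, 0.906 and 0.904), with 0.645, 0.524 and 0.0525 in dataset 1. Among the members themselves, Aqp3 and Aqp11 had the highest r in dataset 1 (0.725) and in dataset 2 (0.511), and Aqp3 and Aqp4 were at -0.36 and -0.17.

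Genes that handle the cargo or the anchoring of these channels were counted from fixed lists. AQP4 is held at the membrane by the dystrophin complex in other tissues. In parietal cells all 8 genes of this list passed as higher than the mean of the other types, where 35.2% of all genes passed as higher, with a median of 0.99 on the log2 scale against -0.03 over all genes. Dtna, alpha-dystrobrevin, led at 2.42 ± 0.13 (94.3 and 91.0 CPM in parietal, 64.9 and 46.9 in neck cells), and Dmd, dystrophin, was at 1.06 ± 0.07 (53.2 and 55.2 CPM). In neck cells, where 27.3% of all genes passed as higher, 3 of 8 passed as higher and 0 as lower, namely Dtna at 1.55 ± 0.14, Sntb1 at 0.93 ± 0.10 and Utrn at 0.76 ± 0.06. In mature pit cells 6 passed as lower and in pre-pit cells 5, where 19.7% and 17.4% of all genes passed as lower, with 0 higher in either.

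For glycerol, which AQP3 passes, 4 of 10 genes passed as higher and 0 as lower in mature pit against pre-pit cells of dataset 2, where 6.52% of all genes passed as higher, with a median of 0.38 against -0.02 over all genes. Mgll, which releases glycerol from monoglycerides, was at 18.6 and 67.7 CPM against 2.11 and 3.03 (4.08 ± 0.60), Gk, glycerol kinase, at 166 and 165 against 64.1 and 69.0 (1.31 ± 0.10), and Gpd2 differed by 0.58 ± 0.08. In dataset 1, 4 of the 9 tested passed as higher in the corpus, with Mgll at 3.91 ± 0.46, Gpd1 at 1.55 ± 0.30 and Gk at 0.83 ± 0.21, and 6 in the antrum, with Gpd1 at 1.41 ± 0.34 and Gk at 1.13 ± 0.25, where 7.08% and 8.29% of all genes passed as higher. In the antrum Mgll was at 204 and 117 CPM in mature pit cells and at 0 UMIs in pre-pit cells. No gene of the list passed as lower in either region.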

How the data were processed

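Single cells of dissociated mouse gastric units were sorted into 384-well plates and measured with Quartz-Seq2, on 6 plates for dataset 1 and 12 for dataset 2. Per the paper's methods, the authors used Drop-seq tools, FASTX-Toolkit and STAR with GRCm39 and Gencode M27, kept cells with at least 2500 detected genes and clustered them. The submitters' processing notes also name bcl2fastq 2.20.0.422. The deposited count tables hold raw UMI counts per gene and cell, and the deposited metadata give each cell's cluster, plate and percent of mitochondrial UMIs. UMI counts and member values of all 4484 annotated cells were the same in the count tables and in the deposited plate tables. Dead cells were removed with ToPro3 per the labels of dataset 1, whereas the methods name propidium iodide. The 384 well barcodes recur on every plate of a dataset, so cells were told apart by plate and barcode. Doublets were not called here.

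For each pool, the UMI counts of all cells of 1 type, or of 1 cluster, were added up, since cells of a pool are not independent. Clusters were joined to types by the names the study gives them. Sums by type held 483675 to 2362300 UMIs in dataset 1 and 2165683 to 29539575 in dataset 2. Sums by cluster held 32986 to 2362300 and 27776 to 12893877 UMIs. In the smallest cluster sums of the datasets, 3 UMIs stood for 90.9 and 108 unscaled CPM. edgeR 4.0.16 in R 4.3.3 (TMM, filterByExpr, glmQLFit, glmQLFTest) was run on all sums of a dataset, with Benjamini-Hochberg adjustment over the 10229 genes (dataset 1) or 13894 genes (dataset 2) that passed the filter, and on sums by cluster over 11965 and 15295 genes. Genes were called at an adjusted p under 0.05. A type was also set against the mean of the other types on the log2 scale. CPM values are scaled within each fit, so those by type and by cluster differ slightly. SE is the log2 fold change divided by the square root of F. A gene at or under 3 UMIs in each pool of a type was given a fold bound in place of a fitted fold. The bound sets the mean level of the higher type over its pools against 3 UMIs in each pool of the lower type. Shares of cells used cells thinned to 10000 UMIs, which left out 49 and 52 annotated cells, with 95% exact binomial intervals that cover counting error only. The fits were tested on simulated data in which sums were drawn independently, so that test does not cover deviations shared by the types of a pool.

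Types of 1 pool come from the same 3 mice. As a check, deviations of the pools correlated between pairs of types at 0.0930 to 0.492 in dataset 2 (14 of 15 pairs over 0.1) and at -0.0289 to 0.0504 in dataset 1 (0 of 21). Fits without a block were the main ones, and the block was an alternative. Others were upper-quartile scaling, no filter on low sums, DESeq2 1.42.0, plates as samples, cells with at least 4000 genes, leaving out cells of the highest UMI totals, thinning to 5000 UMIs and leaving out each pool.

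Named were the 6 members, the other aquaporin genes, the 3 genes most like each member with at least 200 UMIs, and the called genes with the largest differences in 4 lists (dystrophin complex, glycerol, hydrogen peroxide, cell volume). Of these, 2 named genes are not reported here. The members and lists were chosen with earlier results of these data known. Promoter sequences came from RefSeq (GRCm39), and 5 of 6 members were matched there and used.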

Additional observations from a re-analysis of the deposited data

Results flagged for a closer look

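In groups of 1 member, type and pool of dataset 2, the 6 plates were searched for a plate that stood apart from the others. Each group was tested at its highest and its lowest plate, in 60 tests, where chance marks about 1 in 20 groups. Not every member, type and pool was searched, and chief cells were not. Aqp1 in isthmus cells of pool T was at 0.0 unscaled CPM (UMIs per 1000000 UMIs) on 1 plate with 116 isthmus cells, and the next lowest plate was at 0.926. Aqp11 in pre-pit cells of pool K was at 54.6 unscaled CPM on 1 plate with 21 pre-pit cells, and the next highest plate was at 34.4.

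Wells that are not annotated cells also held UMIs of the members, which no comparison used. In dataset 1 these were 107 UMIs in 1813 wells, of which 33 were Aqp3, 33 Aqp5, 26 Aqp11, 9 Aqp4, 3 Aqp1 and 3 Aqp8. In dataset 2 they were 23 UMIs in 615 wells.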

How the results depend on the processing

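Over the alternatives, 680 of the tallied member differences kept their direction and side of the threshold. Another 31 kept the direction and lost the call, 3 gained it and 6 changed sign. The 3 gained calls were all in the pit comparisons, and the tally does not hold every gained call. By type, calls gained without the filter were 6 against the mean of the others and 15 between pairs of types. With DESeq2 they were 4 and 4, and without cells of the highest UMI totals 1 and 4. The sign changes were of values near 0 or of 1 pool: Aqp11 in antrum mature pit against pre-pit cells (-0.01) was 0.030 without the filter, 0.021 with plates as samples, 0.073 with DESeq2, 0.50 without tube1 and -0.40 without tube2, the Aqp3 interaction was -0.30 without tube1 and 0.14 without tube2, and Aqp8 in cluster 9 of dataset 1 was 8.07 without tube1 and -0.48 without tube2. Of the members called in mature pit against pre-pit cells of dataset 2 (1), 2 were called without the filter, 2 with DESeq2, 0 with plates as samples, where Aqp3 did not pass the filter, and 0 to 1 without 1 pool. Between corpus and antrum mature pit cells (1), 2 were called without the filter and 0 without either pool. Among type calls of dataset 2, Aqp11 in isthmus cells and Aqp3 in neck cells lost the call without either pool, and Aqp11 in neck cells lost it without pool K (adjusted p = 0.174), with upper-quartile scaling (0.0546), without the filter (0.0657) and without cells of the highest UMI totals (0.0632). With DESeq2, Aqp8 in clusters 5-7 and 9 of dataset 1 lost the call (adjusted p = 0.533 and 0.532), as did Aqp5 in clusters 3 and 4-15 and Aqp4 in cluster 4-15. Where 1 pool was left in a type, it was assumed to vary like the other types.

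At 5000 UMIs per cell, the share with a UMI was 21.7% for Aqp4 in parietal cells, 24.3% for Aqp5 in neck cells, 14.9% for Aqp11 in mature pit cells of dataset 2 and 65.3% for Aqp3 in antrum mature pit cells. Without 1 pool it ranged from 6.00 to 26.9% for Aqp3 in mature pit cells and from 27.4 to 40.6% for Aqp5 in neck cells. With the replicate block, that is the pool as a paired term, the called genes in mature pit against pre-pit cells of dataset 2 were 1974 in place of 1439, with 1 member, 16 member tests passed over the types in place of 15, gained by Aqp5 in mature pit cells (-1.70, adjusted p = 0.00798, in place of -1.68 and 0.0621). In dataset 1, Aqp4 in isthmus-like cells gained the call too (adjusted p = 0.0491 in place of 0.0874). The block also added 4 calls of Aqp3 or Aqp4 between pairs of types, and no called member difference was lost with it.

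Counts of all genes called moved by over 1.5 times in mature pit against pre-pit cells of dataset 2 (1439 to 2590 with plates as samples, 417 to 668 without 1 pool), corpus against antrum mature pit (439 to 210 with DESeq2, 124 to 150 without 1 pool), corpus mature against pre-pit (1323 to 672 with DESeq2, 80 without tube1), antrum mature against pre-pit (1427 to 696 with DESeq2, 283 to 554 without 1 pool) and pre-pit regions (519 to 784 without the filter, 285 with DESeq2, as few as 112 without 1 pool). The interaction called 3 genes, and 97 without the filter, 12 with DESeq2, 12 with the block, 9 without cells of the highest UMI totals and 0 to 2 without 1 pool. Cluster calls without 1 pool fell from 44392 to 21636 and 23772 in dataset 1 and from 90706 to 53397 and 54755 in dataset 2, over fewer clusters. The causes of these moves were not tested. Depth limits Aqp1 and Aqp8 most, which had too few UMIs for the fits by type.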

Other observations

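Among genes of cell volume and osmolyte handling, Sgk1, a kinase that regulates ion transport, set corpus pit cells apart from antrum pit cells. It was at 912 and 869 CPM in corpus mature pit cells of dataset 1 and at 29.2 and 21.9 in antrum mature pit cells, a 33.9-fold difference (5.08 ± 0.21 on the log2 scale), and in pre-pit cells at 478 and 391 against 21.3 and 8.15 CPM (4.76 ± 0.27). The pools did not overlap at either stage. Slc12a2, the basolateral sodium, potassium and chloride cotransporter, was higher in the corpus as well (1.12 ± 0.16 and 1.49 ± 0.18). These 2 were the only ones of the 14 tested genes of this list that passed in either comparison. Of all genes, 1.63% passed as higher in the corpus in mature pit cells and 2.3% in pre-pit cells. In mature pit against pre-pit cells of dataset 2, 4 genes of the list passed as higher, as did 6.52% of all genes, and 0 as lower, led by Sgk1 (1.67 ± 0.22) and Lrrc8b, a subunit of the volume-regulated anion channel (1.03 ± 0.21), while the median of the list was -0.01. In parietal cells of dataset 2, where Aqp4 was highest, 12 of 14 tested genes passed as higher and 2 as lower, where 35.2% and 32.6% of all genes did, with Sgk1 at 1.95 ± 0.15 and Slc12a2 at 1.42 ± 0.14.

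Of 12 tested genes that form or remove hydrogen peroxide, 2 passed as higher and 2 as lower in mature pit against pre-pit cells of dataset 2. Of all genes, 6.52% and 3.84% did. In dataset 1 the counts were 4 and 1 in the corpus (7.08% and 5.86% of all genes) and 2 and 2 in the antrum (8.29% and 5.66%). Duox2 and Duoxa2, the epithelial oxidase and its maturation factor, were higher in mature pit than in pre-pit cells of dataset 2 and of the corpus in dataset 1. Duox2 was at 32.7 and 59.5 CPM in mature pit cells of dataset 2 and at 0 UMIs in pre-pit cells. In dataset 1 it was at 235 and 58.4 CPM in corpus and at 7.46 and 6.96 in antrum mature pit cells (4.33 ± 0.56 for corpus minus antrum), the opposite direction to Aqp3. In antrum pre-pit cells Duox2 was at 0 UMIs, and Duoxa2 was at 6.84 and 5.97 CPM in antrum mature pit and at 5.32 and 0.0 in antrum pre-pit cells, and neither was called in mature against pre-pit cells of the antrum (adjusted p = 0.165 and 0.723). The antioxidant Prdx4 was lower in mature pit than in pre-pit cells of dataset 2 (-1.03 ± 0.10) and in both regions of dataset 1 (-1.19 ± 0.23 and -1.18 ± 0.24). In parietal cells, where 35.2% of all genes passed as higher, 7 of 12 tested genes passed as higher, led by Prdx5 (3.14 ± 0.06) and Cat, catalase (3.05 ± 0.09), and 2 as lower, with Prdx4 at -1.84 ± 0.07. The Duox2 pools of corpus mature pit cells differed widely, and 2 pools stand behind each of these values.

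In the chief cells of dataset 2, where Aqp11 was lowest of the 6 types, Sntb1, beta-1 syntrophin of the dystrophin complex, was 8.05-fold above the mean of the other types (3.01 ± 0.10), while Sntb2 was lower (-1.15 ± 0.19).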
